A study of Mus musculus with 4 samples.

Results

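Lysosomal hydrolases and lysosomal membrane proteins were followed as a class of 40 mouse genes, chosen by name from general knowledge of the organelle. The class was set after Gusb and Ctsc were known to read lower in LIN28A cells, and the comparison asks whether other lysosomal genes share that difference. Probe sets annotated with 1 of these symbols alone were found for 38 of the 40 genes, among 12393 named genes on the arrays. Arsb and Cd63 had none and were not analysed here. A gene was represented by its probe set with the highest mean of log2(intensity + 16) over the arrays.

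RNA came from mouse P19 embryonal carcinoma cells, a pluripotent tumour line that makes neurons when aggregated in retinoic acid. The control line was unmodified P19. The experimental line was P19 that constitutively expressed human LIN28A, which binds RNA and keeps let-7 microRNAs from maturing. Cells of either line formed aggregates in bovine serum and all-trans retinoic acid (5e-07 M) over 4 days, and 2 one-colour Affymetrix arrays were made of each line, numbered 1 and 2. The control is a line without added LIN28A and is not described in the labels as carrying an empty vector. The promoter that drives LIN28A, and whether the line is 1 clone, are not given in the sources used here. In such bulk RNA, fewer cells of a type and less RNA per cell cannot be told apart.

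Lysosomes are acidic organelles in which hydrolases degrade proteins, glycans, lipids and nucleic acids delivered by endocytosis and autophagy. Most soluble hydrolases are tagged with mannose 6-phosphate in the Golgi and carried to the lysosome by receptors, while heavily glycosylated membrane proteins line its wall and a proton pump, the V-ATPase, keeps it acid. Many of the genes share promoter sequences of the CLEAR type, which are bound by the transcription factor TFEB and its relatives, and loss of single hydrolases causes storage diseases that often affect neurons.

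The arrays differed by number as well as by line. Arrays of the same number correlated with Pearson's r = 0.97 across probe sets, and arrays of the same line with 0.93 to 0.94. Probe sets are not independent replicates. The 18S ribosomal RNA probe set for the middle of the transcript read 677 and 136 on control 1 and LIN28A 1, against 9.20 and 11.3 on control 2 and LIN28A 2. Of neuronal markers, all 10 measured genes had a mean difference below 0, against 59.9% of all named genes. Stmn2 and Elavl4 had both LIN28A arrays below both controls (20%, against 18.3% of all named genes), and 0 had both above (against 10%). The summed intensity of the neuronal markers was 2922 and 5108 in control against 1537.5 and 3524 in LIN28A cells. Neural progenitor markers summed to 5778.5 and 8064 in control against 6590 and 5589 in LIN28A cells, and pluripotency markers to 2196 and 2249 against 1999 and 2464. Single bright genes carried much of both sums, Sox2 with 1902 and 1697 in control and Vim with 4084.5 and 4165. Of 10 pluripotency markers, Sall4, Dnmt3b and Utf1 had both LIN28A arrays above both controls (30%, against 10% of all named genes). Sox2 and Fgf4 had both below (20%, against 18.3%). Sall4 read 16.4 and 2.10 in control against 194 and 83.1 in LIN28A cells. Of 9 progenitor markers, Hes5 lay above in this way and Vim below (11.1% each). In contrast, 6 of 10 macrophage and microglia markers and 8 of 12 primitive and visceral endoderm markers stayed under an intensity of 16 on all arrays. Macrophage markers summed to 121 and 99.2 in control against 79.3 and 101 in LIN28A cells, and Aif1 and Itgam never exceeded 3.30. Lyz2 was brighter, at 37.8 and 22.9 in control against 15.8 and 31.9 in LIN28A cells. Cd68 read 20.2 and 34.1 in control against 12.5 and 28.0 in LIN28A cells. Adgre1 and Ptprc had both LIN28A arrays below both controls (20% of these markers, against 18.3% of all named genes). Csf1r had both above (10%, against 10%). Endoderm markers summed to 128 and 62.6 in control against 83.3 and 104 in LIN28A cells. Of these 12, Sox7, Ttr and Afp had both LIN28A arrays below both controls (25%), and 0 had both above. Mesenchymal markers summed to 341 and 159 in control against 350 and 540 in LIN28A cells. Of these 10, Col3a1 and Acta2 had both LIN28A arrays above both controls (20%), and 0 had both below.

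Lysosomal genes lay mostly lower in LIN28A cells. Of the 38 measured members, 31 had a mean difference below 0, against 59.9% of all named genes, and the median log2 difference (LIN28A minus control) was -0.25, against -0.06 over all named genes. Both LIN28A arrays lay below both control arrays for 14 members, which is 36.8% of them, where 18.3% of all named genes did so. The opposite order, with both LIN28A arrays above both controls, was found for 0 members, where 10% of all named genes did so. Genes whose lines do not overlap in this way are called separated here. With every array centred on its median, 12 members were separated below (7.50% of all named genes) and 3 above (17.9%). Without Gusb and Ctsc, the median over the other 36 was -0.23, and 12 of them had both LIN28A arrays below both controls.

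The members' median lay further below 0 in number 1 than in number 2. Within number 1 the members' median was -0.46, against -0.11 over all named genes, and 34 of 38 lay below 0, against 63.6% of all named genes. Within number 2 the median was -0.13, against 0.01, and 24 of 38 lay below 0, against 48.1%. LIN28A 1 was the dimmest array, with a median intensity of 29 over probe sets, against 35.8 on control 1, 38.6 on control 2 and 36.7 on LIN28A 2. With every array centred on its median, the members' medians were -0.26 in number 1, against 0.09 over all named genes, and -0.07 in number 2, against 0.06. Lower values within both numbers were seen for 21 members, against 33.7% of all named genes, and higher values within both for 1, Laptm4a, against 21.6%. For the other 16, the numbers disagreed in sign. Whether 18S RNA, the brightness of LIN28A 1, the neuronal markers or another property of the arrays had a part in these differences was not tested.

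No member passed a test across all probe sets. Limma's moderated test without a block called 0 probe sets lower and 0 higher at an adjusted p under 0.05 (0% in each direction), and every tested member had an adjusted p of 1.0. At an unadjusted p under 0.05, 192 probe sets (1.21%) were lower and 70 (0.442%) were higher, and among the lower ones were the leading probe sets of 3 members, Ctsc, Gusb and Grn. Ctsc and Gusb were known to read lower before the class was set. Without them, 1 of 36 measured members, Grn, was lower at that limit in the fit without a block (2.78%, against 0.968% of all named genes). With the replicate number as a block, Ctsl, Ctsz, Gaa, Neu1, Man2b1, Ppt1 and Tpp1 were also lower at that unadjusted limit. In that fit 890 of the 15838 probe sets were lower at the limit, and no member passed after adjustment. Of the 38 members, 34 passed the filter on low values. The other 4, Ctss, Ctsh, Ctsf and Hexa, were too dim to be tested. The measured counts above therefore describe these 4 arrays and do not carry a test of the class.

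**Figure D1:**
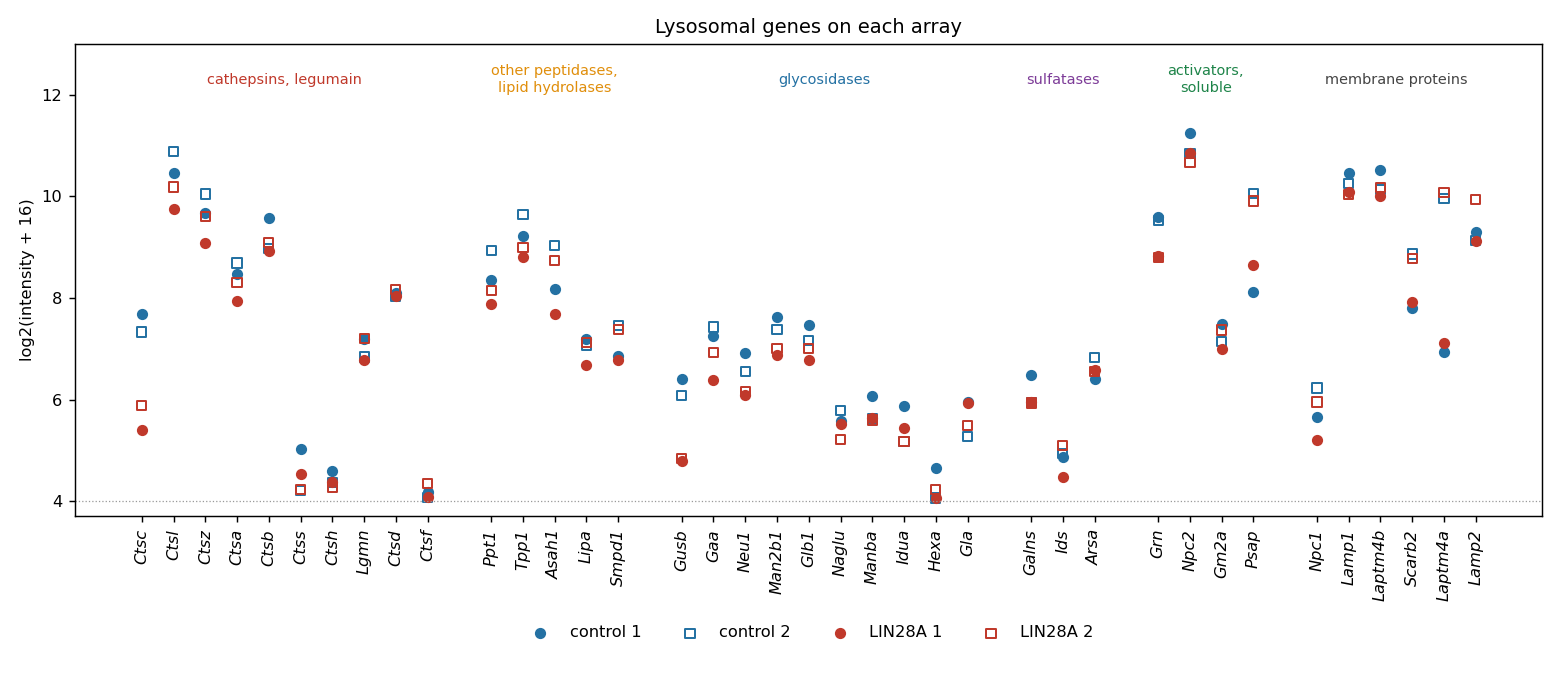
Log2(intensity + 16) of each measured lysosomal gene on each array, grouped by role and ordered within a role by the mean difference. Blue marks are control and red marks LIN28A arrays, filled circles are number 1, open squares number 2, and the dotted line is an intensity of 0. For Ctsc and Gusb the red marks lie far below the blue ones, and for Psap and Laptm4a the squares lie far above the circles in both lines.

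Ctsc and Gusb had by far the largest differences of the class. Ctsc encodes cathepsin C, a dipeptidyl peptidase that activates granule serine proteases in immune cells. Its intensity was 188 on control 1, 145 on control 2, 26.2 on LIN28A 1 and 42.9 on LIN28A 2, so both LIN28A arrays lay well under both controls. The means were 166.5 ± 30.8 in control against 34.5 ± 11.8 in LIN28A cells (SD, n = 2), and the log2 difference was -1.86 ± 0.32 (SE), with -2.28 in number 1 and -1.45 in number 2. Here and below, SE is limma's moderated error from the fit without a block. It draws on the variance of all tested probe sets and is not the spread of the gene's own arrays alone. Over all named genes, 0.0403% had a more negative mean difference. Gusb encodes beta-glucuronidase, which removes glucuronic acid from glycosaminoglycans. It read 69.0 and 51.5 in control against 11.6 and 12.5 in LIN28A cells, again with no overlap. Its means were 60.2 ± 12.37 and 12.1 ± 0.636 (SD, n = 2), for a log2 difference of -1.43 ± 0.29 (SE), with -1.62 in number 1 and -1.24 in number 2. At its second probe set, Gusb read 7.10 and 16.4 in control against 0.400 and 4.70 in LIN28A cells, a dim signal with the same order. Because the LIN28A values of Gusb were below the pseudocount of 16, its difference ranged from -0.70 with a pseudocount of 64 to -2.22 with a pseudocount of 1, and Ctsc ranged from -1.22 to -2.26. These 2 genes were the reason for asking about the class, so their values are a description. Gusb and Ctsc were the only 2 members with a log2 difference of -1 or less, which 0.734% of all named genes had, and no member reached 1, which 0.186% of all named genes did.

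To set the sequences beside these values, the 250 bases before the RefSeq start sites of Gusb and Ctsc, the members with the most negative differences, and of Lamp2, the member with the highest mean difference, are printed 5′ to 3′ on the gene's strand (GRCm38.p6). They lie at chr5:130003050-130003299 (minus strand), chr7:88277835-88278084 (plus strand) and chrX:38456461-38456710 (minus strand). None holds CACGTG, the E-box at the centre of the CLEAR sequence, so no letters are in capitals.
Gusb: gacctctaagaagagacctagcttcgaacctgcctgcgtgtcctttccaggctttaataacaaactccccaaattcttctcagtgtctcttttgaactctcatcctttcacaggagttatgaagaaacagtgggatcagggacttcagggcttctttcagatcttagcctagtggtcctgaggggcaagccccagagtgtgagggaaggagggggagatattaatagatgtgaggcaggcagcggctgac
Ctsc: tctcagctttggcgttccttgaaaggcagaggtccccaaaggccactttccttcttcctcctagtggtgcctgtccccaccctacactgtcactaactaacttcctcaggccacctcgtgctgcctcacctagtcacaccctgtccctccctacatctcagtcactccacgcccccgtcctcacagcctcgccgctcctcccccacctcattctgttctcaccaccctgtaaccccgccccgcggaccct
Lamp2: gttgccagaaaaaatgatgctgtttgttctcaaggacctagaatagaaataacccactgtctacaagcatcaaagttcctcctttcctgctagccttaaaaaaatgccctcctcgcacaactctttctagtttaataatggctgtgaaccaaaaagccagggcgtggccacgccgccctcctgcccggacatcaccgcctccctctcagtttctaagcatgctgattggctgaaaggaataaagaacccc

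Among the other 9 cathepsin and legumain genes, 3 had both LIN28A arrays below both controls, where 18.3% of all named genes did so. The cysteine endopeptidase gene Ctsl read 1397 and 1873 in control against 845 and 1148 in LIN28A cells, a log2 difference of -0.71 ± 0.33 (SE) that was -0.72 in number 1 and -0.70 in number 2. Ctsz, which encodes the carboxypeptidase cathepsin Z, read 804 and 1042 in control against 523 and 762 in LIN28A cells, and its 3 probe sets differed by -0.52, -0.56 and -0.54. Ctsa encodes protective protein/cathepsin A, a carboxypeptidase that stabilises the enzymes made from Glb1 and Neu1. Its intensity was 339 and 396 in control against 229 and 300 in LIN28A cells, with a difference of -0.46. For these genes the 2 lines did not overlap, but the gap between LIN28A 2 and control 1 was narrow for Ctsz and Ctsa.

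The remaining members of this group did not separate the lines. Ctsb, a cysteine protease gene, read 746 and 484.5 in control against 467 and 531.5 in LIN28A cells, with -0.66 in number 1 and 0.13 in number 2. A second bright probe set of Ctsb overlapped between lines, with 206 and 283 in control against 147 and 300 in LIN28A cells, a difference of -0.18. At both dim probe sets of Ctsb the LIN28A arrays lay below the controls, with differences of -0.37 and -0.36. Ctsd, the aspartic protease gene, had the closest values of the bright cathepsins, at 259.5 and 244 in control against 247 and 272 in LIN28A cells, a difference of 0.04. The legumain gene Lgmn, whose product cuts after asparagine and processes cathepsins, read 130 and 98.3 in control against 93.9 and 131.5 in LIN28A cells. Ctss, a protease gene of antigen-presenting cells, never exceeded 16.5, Ctsh never exceeded 8.2, and Ctsf had the highest mean difference of this group, 0.09, from intensities of 2.0 and 0.800 in control against 0.900 and 4.30 in LIN28A cells. Values that low give no reading of a difference. Over the 10 genes of this group, the median difference was -0.25, with -0.51 in number 1 and -0.04 in number 2.

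Among the glycosidases other than Gusb, 5 of 9 had both LIN28A arrays below both controls, where 18.3% of all named genes did so. These were Gaa, Neu1, Man2b1, Glb1 and Naglu. Gaa, the acid alpha-glucosidase gene whose enzyme degrades glycogen, read 137 and 156 in control against 67.3 and 106 in LIN28A cells, a log2 difference of -0.68 ± 0.32 (SE), and its second probe set differed by -0.59. The sialidase gene Neu1 read 104 and 78.3 in control against 52.1 and 55.3 in LIN28A cells, a difference of -0.61. Its other 2 probe sets never exceeded 14.9 and differed by -0.10 and -0.01. Man2b1, which encodes the acid alpha-mannosidase, read 180.5 and 150 in control against 101 and 112 in LIN28A cells. That is a difference of -0.56, but a second, dim probe set of Man2b1 read 1.90 and 15.7 against 16.5 and 13.6 and differed by 0.38. For Glb1, the beta-galactosidase gene, the arrays read 160 and 126.5 in control against 93.3 and 112 in LIN28A cells, with -0.69 in number 1 and -0.16 in number 2. Naglu, which encodes an enzyme of heparan sulfate breakdown, read 32.0 and 39.2 against 29.6 and 21.0, with -0.07 in number 1 and -0.58 in number 2. Glb1 and Naglu thus owed most of their differences to opposite numbers.

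The other 4 glycosidase genes overlapped between lines. The beta-mannosidase gene Manba read 51.2 and 33.2 in control against 33.8 and 32.4 in LIN28A cells, so that control 1 alone stood apart. Idua, the alpha-iduronidase gene, showed the same pattern, with 42.6 and 19.9 against 27.2 and 20.1. Gla, the alpha-galactosidase A gene, had the highest mean difference of this role, 0.10, from 46.2 and 22.5 in control against 45.3 and 28.9 in LIN28A cells. Its second, dim probe set read 1.90 and 3.60 in control against 17.6 and 4.70 in LIN28A cells. There both LIN28A arrays lay above both controls, with a difference of 0.49. Hexa, which encodes the alpha subunit of beta-hexosaminidase, never exceeded 9.0. The median over the 10 glycosidase genes was -0.37, with -0.63 in number 1 and -0.27 in number 2.

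**Figure D2:**
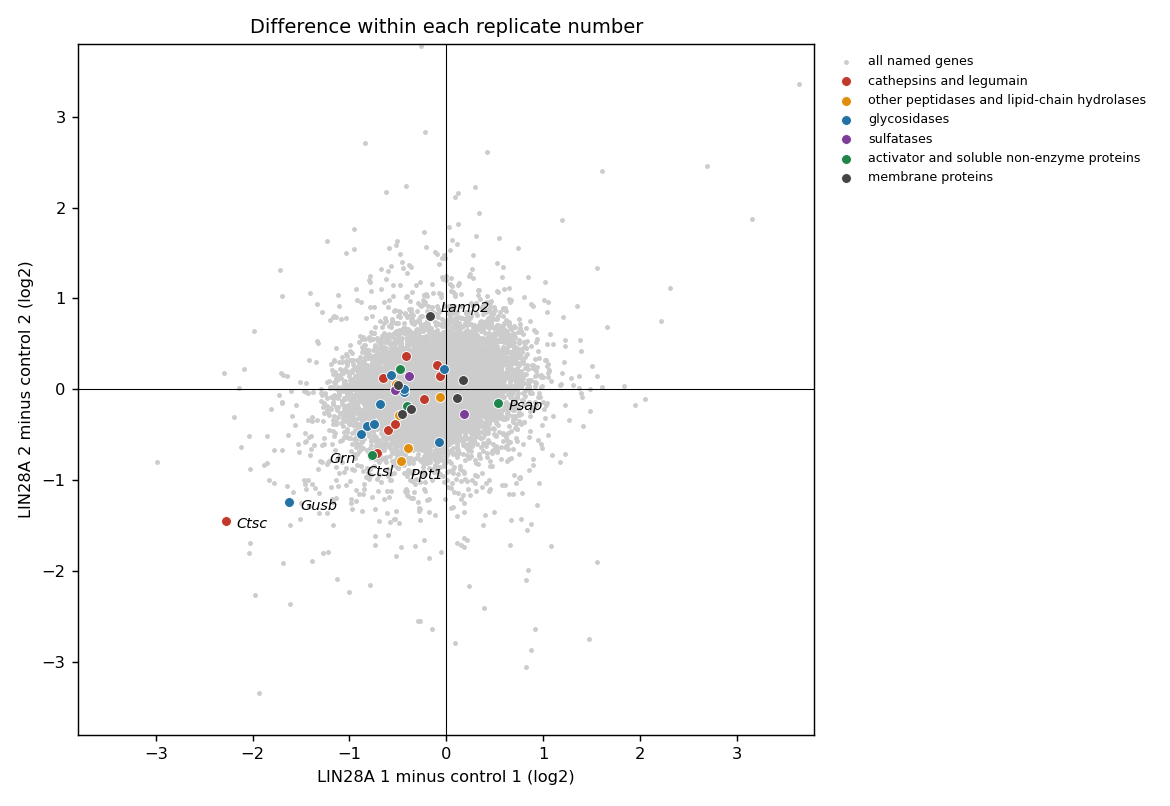
LIN28A minus control, in log2(intensity + 16), within number 1 (horizontal) and number 2 (vertical), for all named genes (grey) and for the lysosomal genes coloured by role. Ctsc and Gusb lie lowest on both axes among the lysosomal genes, 21 of the 38 lie below 0 on both axes, and 1 lies above 0 on both.

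Among genes for peptidases and enzymes of lipid chains, all 5 had a mean difference below 0, where 59.9% of all named genes did so. Of the 5, 2 had both LIN28A arrays below both controls, Ppt1 and Tpp1, where 18.3% of all named genes did so. Ppt1 encodes a thioesterase that removes palmitate from proteins, and Tpp1 a tripeptidyl peptidase. Loss of either gene causes a form of neuronal ceroid lipofuscinosis. Ppt1 read 311 and 475 in control against 221 and 269 in LIN28A cells, a log2 difference of -0.62 ± 0.33 (SE), and its second probe set differed by -0.77 with overlapping lines. Tpp1 read 577.5 and 782 in control against 434 and 495 in LIN28A cells, a difference of -0.52, and -0.31 at its second probe set. Both genes had the larger difference in number 2, -0.79 for Ppt1 and -0.64 for Tpp1. The acid ceramidase gene Asah1 read 271 and 505 in control against 189 and 412 in LIN28A cells. It was lower within each number, by -0.49 and -0.28, but its numbers lay further apart than its lines. Lipa, which encodes lysosomal acid lipase, read 131 and 118 in control against 86.2 and 124 in LIN28A cells at its brightest probe set. At the other 2 probe sets of Lipa the lines did not overlap, with differences of -0.58 and -0.26. Smpd1, the acid sphingomyelinase gene, had the highest mean difference of the 5, -0.07, from 99.2 and 160 in control against 94.2 and 150 in LIN28A cells.

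Sulfatases had 3 measured genes, and none separated the lines. Galns, whose enzyme removes sulfate from keratan sulfate, read 73.2 on control 1 and 45.6, 45.6 and 45.1 on control 2, LIN28A 1 and LIN28A 2, so its difference of -0.27 rested on control 1. Ids, the iduronate sulfatase gene, read 13.2 and 14.7 against 6.30 and 18.1, and its 5 probe sets differed by -0.12 to 0.03, all near or below the pseudocount. The arylsulfatase A gene Arsa read 68.3 and 97.4 against 79.4 and 77.8, a difference of -0.05. The median over the 3 was -0.12.

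Of the 4 genes for activators and other soluble proteins that are not enzymes, Grn had the clearest separation. Grn encodes progranulin, a secreted and lysosomal protein that is split into granulins and is required in neurons and microglia. Its intensity was 753 and 722 in control against 437 and 430 in LIN28A cells, so the spread within each line was small against the gap. The means were 737 ± 21.6 and 433 ± 4.60 (SD, n = 2), with a log2 difference of -0.75 ± 0.27 (SE), -0.76 in number 1 and -0.73 in number 2. All 3 probe sets of Grn separated the lines, at -0.75, -0.78 and -0.52. Npc2, which encodes a cholesterol carrier of the lysosome lumen, read 2430 and 1829 in control against 1830 and 1610 in LIN28A cells, a difference of -0.29. Control 2 and LIN28A 1 were nearly equal there, while the second probe set of Npc2 separated the lines, with 2354 and 2022 against 1668 and 1533. Gm2a, the gene for the activator of ganglioside GM2 breakdown, had -0.48 in number 1 and 0.22 in number 2. Psap, the saposin precursor gene, read 263 on control 1 and 388 on LIN28A 1, but 1051 on control 2 and 945 on LIN28A 2. The mean difference of Psap, 0.19, was thus small beside its difference between numbers, 1.59.

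Of the 6 measured membrane protein genes, 3 lay below 0 and 3 above, with a median of -0.11, and no difference between roles was tested. The sign of Lamp2 turned with the mean of its probe sets (-0.045), and those of Laptm4a and Scarb2 turned with 1 array left out. Lamp1, which encodes a main glycoprotein of the lysosomal wall, read 1394 and 1202 in control against 1076 and 1030 in LIN28A cells. Its lines were separated by a small gap, with a difference of -0.29. Npc1, the gene for the membrane partner of Npc2 in cholesterol export, read 34.4 and 58.8 in control against 20.7 and 45.9 in LIN28A cells, lower within each number but overlapping. Laptm4b, a multispanning membrane protein gene, differed by -0.50 in number 1 and 0.05 in number 2. Its relative Laptm4a read 107 and 982 in control against 123 and 1060 in LIN28A cells, so that number 2 exceeded number 1 by 2.98 on the log2 scale while the lines differed by 0.14. Scarb2 encodes the membrane receptor that carries glucocerebrosidase to lysosomes. Its leading probe set showed a smaller gap of the same kind, at 208 and 450 in control against 227 and 421 in LIN28A cells. The second probe set of Scarb2 did not, at 139 and 103 in control against 118 and 133 in LIN28A cells. Lamp2, a membrane protein gene whose isoforms serve chaperone-mediated and bulk autophagy, had the highest mean difference of all members, 0.32, from 612 and 546 in control against 543 and 969 in LIN28A cells. LIN28A 2 alone stood high for Lamp2, and its 4 probe sets disagreed, at 0.32, 0.12, -0.32 and -0.30. The annotation used here does not say which isoform each of them detects.

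**Figure D3:**
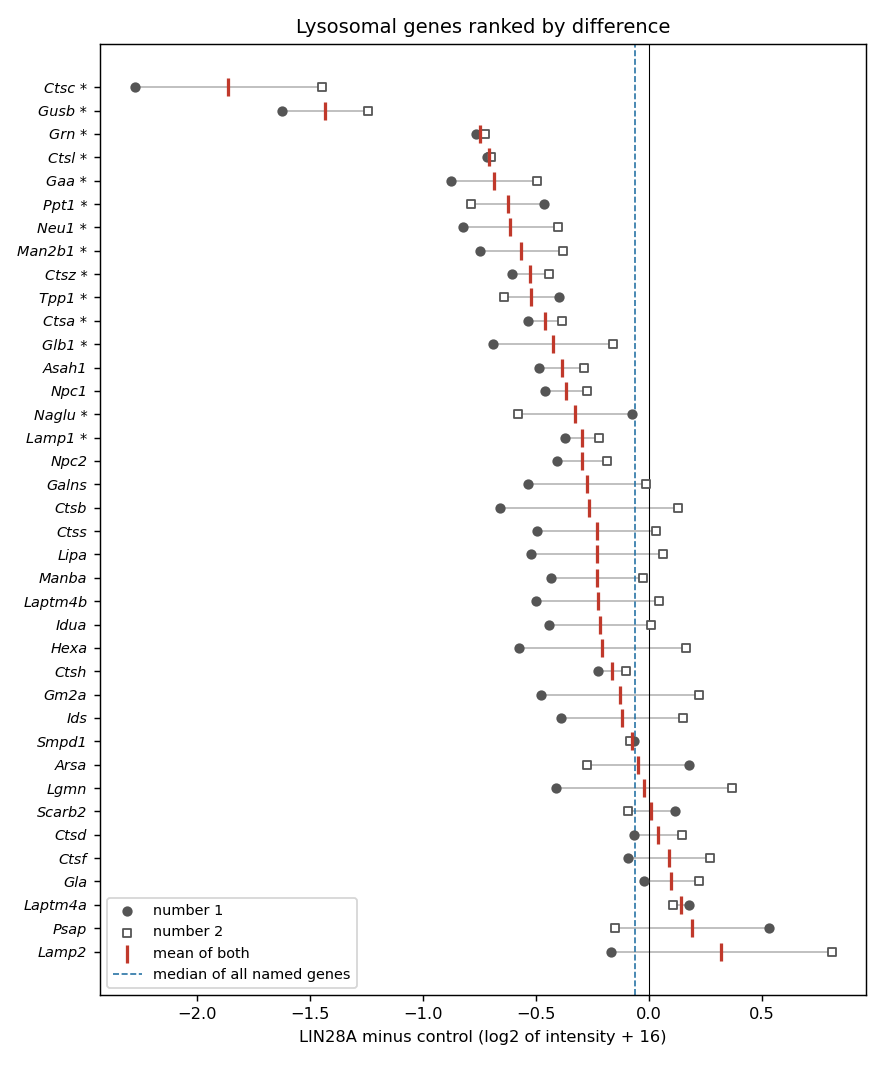
Lysosomal genes ordered by the mean log2 difference (red bar), with the difference within number 1 (filled circle) and number 2 (open square). An asterisk marks the 14 genes with both LIN28A arrays below both control arrays, and the dashed line is the median of all named genes, -0.06. Ctsc and Gusb stand below the rest, and most differences run between 0 and -0.75.

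Other genes of the lysosome were taken from lists that do not contain the members. No gene of these lists passed at an adjusted p under 0.05. Of 24 genes listed as other lysosomal hydrolases, 17 lay below 0 with a median of -0.19 (-0.38 in number 1 and -0.13 in number 2). Both LIN28A arrays were below both controls for 7 of the 24 (29.2%) and above for 2 (8.33%), against 18.3% and 10% of all named genes. The list also held Sumf1, Hgsnat, Creg1 and Epdr1, which do not encode known hydrolases. Sumf1 and Epdr1 were among those separated below. Epdr1 and Fuca2, also separated below, were too dim to be tested. Among those lower, the serine carboxypeptidase gene Scpep1 read 790 and 616 in control against 608 and 261 in LIN28A cells. Galc, the galactosylceramidase gene, read 108 and 146 against 77.2 and 97.5. Sumf1, which encodes the enzyme that activates all sulfatases, read 237 and 181 against 129 and 161, and the sulfatase gene Arsg differed by -0.39. Sumf1, Galc and Scpep1 differed by -0.48, -0.46 and -0.78, less than Ctsc or Gusb.

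Of 31 other membrane proteins and transporters, 22 lay below 0 with a median of -0.12, and 7 had both LIN28A arrays below both controls (22.6%) and 3 above (9.68%). These shares were near the 18.3% and 10% of all named genes. The cystine transporter gene Ctns read 53.3 and 51.1 in control against 26.3 and 33.6 in LIN28A cells. Lmbrd1, needed for export of cobalamin from lysosomes, read 208 and 302 against 107 and 188. Lamp5, a brain member of the Lamp family, never exceeded 15.6 and differed by -0.68, while the two-pore channel gene Tpcn1 read 91.8 and 45.8 against 95.8 and 115 and differed by 0.57. The list thus held separated genes of both directions.

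V-ATPase subunits, the proton pump that acidifies lysosomes, had a median of -0.22, with -0.23 in number 1 and -0.20 in number 2. Of 18 measured subunits 14 lay below 0, with 5 separated below (27.8%, against 18.3% of all named genes) and 1 above (5.56%, against 10%). Atp6v0b, a subunit of the membrane sector, read 776.9 and 713.7 in control against 506 and 542 in LIN28A cells, a difference of -0.49. Atp6v1g2 and Tcirg1 differed by -0.40 and -0.27 at intensities under 33, and Atp6v0a2 read 71.0 and 78.8 against 94.7 and 124 and differed by 0.45. The pump's genes therefore included a separated gene on each side.

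Delivery genes, which include the mannose 6-phosphate receptors, adaptors and tethering proteins, stood close to all named genes, with a median of -0.07. Of 29 measured, 18 lay below 0, 6 were separated below (20.7%, near the 18.3% of all named genes) and 0 above (against 10%). The adaptor gene Gga1 read 108 and 93.1 in control against 62.5 and 80.7 in LIN28A cells, and the tethering genes Vps41 and Vps16 and the adaptor gene Ap1m1 differed by -0.28, -0.28 and -0.26. Cysteine protease inhibitors had 6 measured genes with a median of -0.02, of which Serpinb6a was separated below (-0.21) and the untested, dim Cst6 above.

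Lysosome and autophagy regulators had a median of -0.05 over 24 measured genes, of which 6 were separated below (25%, against 18.3% of all named genes) and 2 above (8.33%, against 10%). Those above were Atg7, an autophagy enzyme gene, and Mitf, a relative of Tfeb, at 0.15 and 0.12. The gap for Mitf was very narrow, with 20.5 and 24.0 in control against 27.0 and 24.1 in LIN28A cells. Tfeb, the gene of the main transcription factor of this programme, read 42.0 on control 1, 31.5 on control 2, 15.9 on LIN28A 1 and 20.3 on LIN28A 2. Both LIN28A arrays were lower, with a log2 difference of -0.63 ± 0.29 (SE), -0.86 in number 1 and -0.39 in number 2, at an unadjusted limma p of 0.077 and an adjusted p of 1.0. The autophagosome gene Gabarap read 1394 and 1552 in control against 744 and 1269 in LIN28A cells. Flcn, which encodes an upstream controller of TFEB, differed by -0.41 and the autophagy gene Uvrag by -0.40. Arrays measure RNA and not the nuclear entry by which TFEB activity is controlled.

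**Figure D4:**
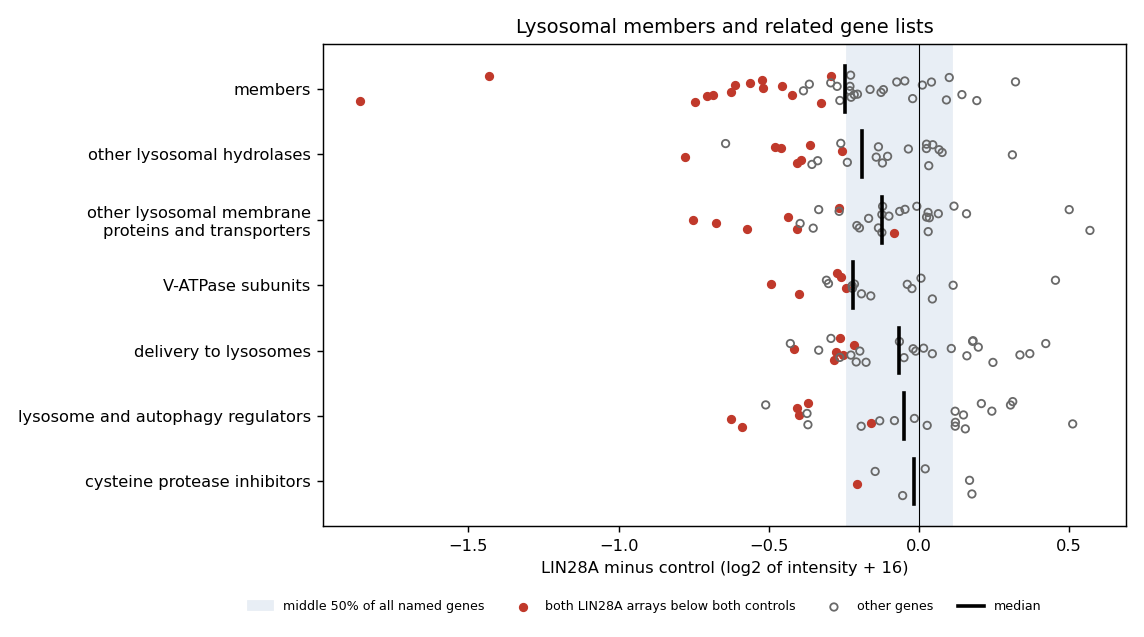
Mean log2 difference (LIN28A minus control) of each gene in the lysosomal class and in 6 related lists. Filled red points are genes with both LIN28A arrays below both controls, black bars are list medians and the shaded band holds the middle 50% of all named genes. The members, the other hydrolases and the V-ATPase subunits have medians of -0.25, -0.19 and -0.22, and delivery genes and regulators -0.07 and -0.05.

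The promoter windows of the class were searched for CACGTG, for the 8-base core TCACGTGA and for the 10-base CLEAR sequence, which is that core between a G and a C. Each reads the same on both strands, and each longer one contains the shorter. RefSeq windows of 300 bases, from 250 before to 50 after the start site, were found for 34 of the 40 members. CACGTG was present in 11 of the 34 genes (32.4%), against 8.09% of 27025 genes with a window. The 8-base core was present in 3, Ctsa, Ctsd and Gla (8.82%, against 1.12%), and the 10-base sequence in 0, against 0.37%. Among the related lists, CACGTG was found in 32.3% of the other membrane proteins, 32.0% of delivery genes, 28.6% of V-ATPase subunits, 13.6% of regulators and 12% of the other hydrolases.

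Windows with CACGTG are shown for 6 members, chosen after the search, because they carry several copies, hold the 8-base core or lie near the start site of a separated gene. Capitals mark CACGTG, and all are written 5′ to 3′ on the gene's strand (GRCm38.p6). Lamp1 (chr8:13159061-13159160, plus), Ctsa (chr2:164833673-164833772, plus), Ctsd (chr7:142387828-142387927, minus), Glb1 (chr9:114400978-114401077, plus) and Naglu (chr11:101069994-101070093, plus) are shown over the 100 bases before the start site. Gla (chrX:134601156-134601255, minus) is shown over the first 100 bases of its window.
Lamp1: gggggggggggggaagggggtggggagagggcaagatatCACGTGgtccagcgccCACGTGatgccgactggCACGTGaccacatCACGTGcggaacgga
Ctsa: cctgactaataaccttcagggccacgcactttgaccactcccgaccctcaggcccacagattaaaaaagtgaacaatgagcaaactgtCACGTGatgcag
Ctsd: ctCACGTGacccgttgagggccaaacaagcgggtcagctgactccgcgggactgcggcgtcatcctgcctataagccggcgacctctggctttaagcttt
Glb1: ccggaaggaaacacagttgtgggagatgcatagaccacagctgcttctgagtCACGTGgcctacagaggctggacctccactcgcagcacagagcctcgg
Naglu: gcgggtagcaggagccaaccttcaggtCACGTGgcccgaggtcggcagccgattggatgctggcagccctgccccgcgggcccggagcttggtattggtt
Gla: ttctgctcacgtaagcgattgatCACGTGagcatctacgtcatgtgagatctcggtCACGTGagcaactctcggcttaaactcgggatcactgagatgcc

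Lamp1 held 4 copies within 61 bases of its start site, the most of any member. Ctsd and Gla, which hold the 8-base core, did not separate the lines (0.04 and 0.10), whereas Ctsa did (-0.46). Among measured members with a window, the 11 with CACGTG had a median difference of -0.29, with 6 separated below, and the 21 without it had -0.23, with 8 separated below. Of all named genes, 18.3% were separated below. Gusb and Ctsc, which prompted the class, are among the 21 and among the 8, so those values partly describe what was known before. The difference between members with and without CACGTG was not tested. A match is a run of letters and not a site shown to be bound.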

How the data were processed

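The authors deposited 1 table of linear intensity values for 22690 probe sets on 4 arrays, and all value columns were used. Per the labels' protocols, biotin-labelled cRNA from oligo(dT)-primed cDNA was hybridised to 1-colour Affymetrix arrays. The summarising method is not stated there. With 2% trimmed from both tails, each array averaged 150.1, so the values were taken as already scaled between arrays.

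The 64 control probe sets were left out. Of the others, 20380 carried 1 gene symbol in the platform annotation, 691 several and 1555 none. Values were turned into log2(intensity + 16), which understates the change of dim genes. For tests, probe sets under the 30th percentile of the mean (a linear value of 8.04) were dropped, which left 15838 probe sets and 8930 genes. The lines were compared with limma 3.58.1 (R 4.3.3, lmFit and eBayes, no block), with Benjamini-Hochberg adjustment over all probe sets with a threshold of 0.05. The fit was also run on simulated arrays with known changes. The only condition set there was that estimated changes scale with the known ones. That does not show how well a fit to these 4 arrays detects a difference. Counts and medians over members used no filter.

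The members and lists were chosen with earlier results of these data known, so no list test is given. All 40 members could be named. Array values are given for Gusb, Ctsc, members with separated lines, members whose probe sets disagree in sign and the extremes of each role, with others added after their values were seen. From each related list, up to 4 separated genes with the smallest p were named. With 2 arrays against 2, the smallest two-sided exact permutation p is 0.333, so none is given. Separate cultures are not stated for the arrays of a line. The p-values then measure only how these arrays vary, possibly for technical reasons, and the number of arrays limits the precision. Alternatives were pseudocounts of 1 and 64, quantile normalization, median centring, other filters, eBayes trend, a replicate block, the mean of a gene's probe sets and leaving out each array. Promoter windows and start sites are from RefSeq (GRCm38.p6).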

Additional observations from a re-analysis of the deposited data

How the results depend on the processing

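The members' median of -0.25 stayed below 0 under every alternative run, at -0.34 and -0.16 with pseudocounts of 1 and 64, -0.21 with quantile normalization and -0.12 with median centring, and between -0.39 (without LIN28A replicate 2) and -0.23 without 1 array. Median centring moved the median of all named genes from -0.06 to 0.07, and the members' gap to it stayed between -0.14 and -0.29 across the settings. Separated below and above were 12 and 3 members with median centring (7.50% and 17.9% of all named genes) and 14 and 1 with quantile normalization (14.0% and 14.9%). Without 1 array these counts were 18 to 26 and 0 to 6 (32.7% to 44.6% and 22.4% to 29.8% of all named genes), where 3 arrays make separation easier. The replicate block called 1 probe set higher and 0 lower, with 468 and 890 at an unadjusted p under 0.05. No member passed with the block (lowest adjusted p 0.28). Deviations of arrays with equal numbers correlated (r = 0.62 across probe sets), but the labels give no link between them other than the number. Every other setting called 0 in each direction. Of 376 single-gene values under alternatives, 36 had the opposite sign, in 18 of the 38 genes, and the cause was not tested. With median centring these were Lgmn (0.11), Smpd1 (0.053), Ids (0.0084), Arsa (0.079) and Gm2a (0.00032), with quantile normalization Lgmn (0.0025), Ids (0.056) and Scarb2 (-0.028), and with the mean of its probe sets Lamp2 (-0.045). The other sign changes came with 1 array left out, which lets part of the difference between numbers enter. Over those settings Ctsb ranged from -0.57 to 0.040, Ctsd from -0.022 to 0.10, Ctsf from -0.041 to 0.22, Ctss from -0.64 to 0.18, Lgmn from -0.23 to 0.19, Smpd1 from -0.38 to 0.23, Asah1 from -0.91 to 0.14, Hexa from -0.50 to 0.086, Gla from -0.25 to 0.45, Idua from -0.57 to 0.14, Ids from -0.43 to 0.19, Arsa from -0.26 to 0.17, Psap from -0.78 to 1.16, Gm2a from -0.31 to 0.06, Lamp2 from -0.088 to 0.73, Npc1 from -0.74 to 0.012, Laptm4a from -1.37 to 1.65 and Scarb2 from -0.52 to 0.54. None of the 14 separated members changed sign in these settings, but 8 moved by over 1.5 times without 1 array: Ctsz (-0.26), Ctsa (-0.28) and Gaa (-0.41) without LIN28A replicate 1, Ppt1 (-0.33) and Tpp1 (-0.31) without control replicate 2, Glb1 (-0.27) and Lamp1 (-0.19) without control replicate 1, and Naglu (-0.17) without LIN28A replicate 2. With the mean of their probe sets Neu1 was -0.24 and Man2b1 -0.09.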
